A study of Arabidopsis thaliana with 42 samples.

Results

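BCAT4 and AOP3 are a pair of Arabidopsis genes of the aliphatic glucosinolate pathway, 2 of the 13287 genes that have a probe set of their own in the annotation used. Each had 1 of the 22810 probe sets on the array, and that probe set names no other gene: 257021_at for BCAT4 (locus AT3G19710, chromosome 3) and 255471_at for AOP3 (locus AT4G03050, chromosome 4). The probe sets were taken by this annotation, but the 2 genes were chosen with earlier results of these data known.

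Glucosinolates are sulfur-rich defence compounds of the cabbage order, stored in plant cells and cleaved to toxic products when tissue is damaged. Aliphatic glucosinolates are built from methionine in stages: the amino acid chain is lengthened, the lengthened chain is turned into the glucosinolate core, and the side chain is then modified. BCAT4 is a cytosolic aminotransferase that removes the amino group of methionine and so opens chain elongation. AOP3 is a 2-oxoglutarate-dependent dioxygenase that turns methylsulfinylalkyl side chains into hydroxyalkyl ones at the far end of the pathway. Leaves of the Col-0 accession are known for methylsulfinylalkyl and not hydroxyalkyl glucosinolates.

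Total RNA of shoots and stems was hybridised to 42 arrays, in 14 groups of 3. Growth was in soil under continuous light, at 23 °C and 65% relative humidity, for every group. The Col-0 organs were the hypocotyl, the vegetative apex taken with and without young leaves, the transition apex before bolting, the inflorescence apex after bolting, the second internode of the stem and the first node. The first-node sample held stem tissue around the branching point together with parts of the side shoot and of the cauline leaf, and the Col-0 inflorescence apex included young flowers. The other 7 groups were inflorescence apices of ufo-1, ag-12, ap3-6, ap2-6, ap1-15, lfy-12 and clv3-7, mutant lines in the Col-0 background with altered meristem size, floral identity or floral organ identity. Whether replicates were different plants is not in the labels, and the p-values below therefore measure only the spread between these samples.

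Values are MAS5 signals, a linear measure of probe set brightness, given as mean ± SD (n = 3). Differences are on the scale of log2(signal + 8.01), with the standard error (SE) of the limma fit, and a difference was called at a Benjamini-Hochberg adjusted p under 0.05. Background is taken here as the 40th percentile of an array's own signals. Where a group is at background, a fold is given as a lower bound, against the mean over its arrays of the higher of that percentile and the gene's own signal, and the fitted log2 difference depends on the offset. The 2% trimmed mean signal was 100.007 to 100.009 on all arrays, and the correlation of arrays within a group, across probe sets, was 0.986 to 0.994. A bacterial control transcript, dap, stood apart on 6 arrays: its mean log2 level was 8.07 in the first node and 7.71 in the Col-0 inflorescence apex, against 3.04 to 3.45 on the other 36 arrays. Of 22 marker genes of meristem, flower, secondary wall, leaf and myrosin or guard cells, 7 had a probe set. The meristem marker CLV3 was low throughout, with group means from 0.928 to 11.1, and the guard cell marker FMA ranged from 10.2 to 46.0 over the Col-0 organs; the others are given beside the results. Levels of different probe sets are not compared with each other, since brightness depends on the probes. In whole organs, fewer cells of a type and less RNA per cell cannot be told apart.

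BCAT4 had a high signal in vegetative organs and the stem and a very low one once the apex had begun to flower. The first node had the highest BCAT4 signal, at 2753, 2773 and 2790.2 on its 3 arrays (2772 ± 18.8). The hypocotyl followed at 1648, 1884 and 1739.55 (1757 ± 119), and the vegetative apex at 1507, 1542 and 1558 (1536 ± 26.5). No array of the first node overlapped the hypocotyl, and no array of the hypocotyl overlapped the vegetative apex. The vegetative apex with young leaves gave 946, 883 and 931 (919.99 ± 32.8), below every array of the vegetative apex alone. The second internode gave 556, 585 and 436 (526 ± 79.1), the widest relative spread among these 5 organs. BCAT4 fell to 22.9, 17.5 and 23.2 (21.2 ± 3.24) in the transition apex and to 11.8, 9.86 and 10.9 (10.9 ± 0.973) in the Col-0 inflorescence apex, and neither group overlapped any other Col-0 organ.

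**Figure D1:**
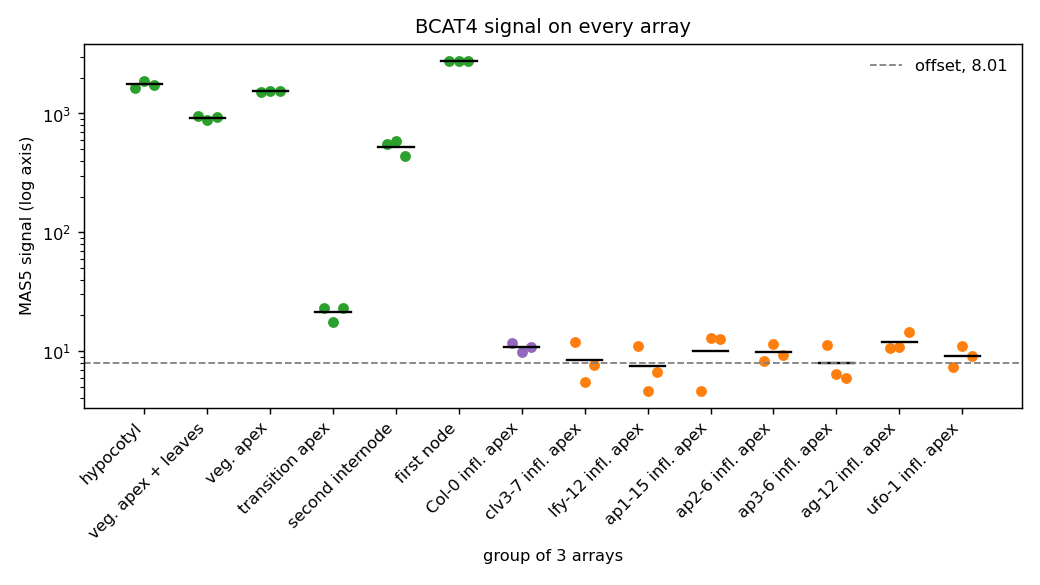
BCAT4 MAS5 signal (log axis) on each of the 42 arrays by group; points are arrays, black bars group means, and the dashed line the offset of 8.01. The first node stands at 2772 and the hypocotyl at 1757, the transition apex at 21.2, and all 24 inflorescence arrays lie between 4.61 and 14.4.

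The order of the Col-0 organs was therefore first node, hypocotyl, vegetative apex without leaves, the same apex with young leaves, second internode, transition apex and inflorescence apex. In limma's moderated F test over the 7 organs BCAT4 differed (F = 2493, adjusted p = 2.3e-28), where 98.4% of the 16039 probe sets tested passed. The steps down to the second internode were called, though 1 of them narrowly. BCAT4 was higher in the first node than in the hypocotyl by 0.66 ± 0.08 (limma, adjusted p = 1.9e-07, 68% of probe sets called). It was higher in the vegetative apex with young leaves than in the second internode by 0.81 ± 0.08 (limma, adjusted p = 2.9e-09, 82% called). The hypocotyl exceeded the vegetative apex by only 0.19 ± 0.08 (limma, adjusted p = 0.042, 73.8% called), a signal ratio of 1.14. That call was lost when any 1 of the 3 vegetative apex arrays, or replicate 2 or 3 of the hypocotyl, was left out (adjusted p = 0.061 to 0.18), and under 6 of the 12 other settings, so those neighbours are not well separated.

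The question posed by the apex samples is how transcripts change from vegetative growth to flowering. BCAT4 fell by 5.73 ± 0.08 from the vegetative to the transition apex (limma, adjusted p = 2.9e-24), in a comparison in which 53.6% of probe sets were called. The vegetative apex was at least 68.1-fold brighter, since BCAT4 was above background, and narrowly, on only 2 of the 3 transition arrays. Between the transition apex and the Col-0 inflorescence apex, both at or near background, the fitted BCAT4 difference was -0.63 ± 0.08 (limma, adjusted p = 2.5e-06, 32.1% called). It was -0.84 with the offset divided by 4 and -0.31 with the offset multiplied by 4, and no fold is given. BCAT4 passed the filter on low values through the brighter organs, with which the SE is shared. In a fit of these 2 groups alone it was below that filter. With all 42 arrays in 1 fit the SE of this difference was 0.15 (limma, adjusted p = 0.0014). From vegetative to inflorescence apex BCAT4 fell by 6.36 ± 0.08 (limma, adjusted p = 8.6e-26, 60.6% called); the difference was -6.91 with the offset divided by 4 and -5.19 with it multiplied by 4. The vegetative apex was at least 67.8-fold brighter. With the mean of the 7 mutants, whose arrays had a low dap level, in place of Col-0 the fall was 6.50. Marker signals moved at the same step. The 3 measured leaf markers (RCA, PRK and LHCB4.2, of 4 listed) summed to 3127 to 3222 in the vegetative apex, 1744 to 1817 in the transition apex and 1607 to 1677 in the Col-0 inflorescence apex. From the vegetative to the transition apex all 3 were called lower by limma, RCA by 0.88, PRK by 0.80 and LHCB4.2 by 0.76. UFO, the 1 measured floral marker of 7, was at 1.73 ± 0.839 in the vegetative apex, 23.5 ± 2.22 in the transition apex and 27.7 ± 1.41 in the Col-0 inflorescence apex. UFO was below background in the vegetative apex. In the transition apex it was near background, at 21.9 to 26.0 against 40th percentiles of 21.3 to 23.1. The part of these markers in the BCAT4 result was not tested.

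Most other measured glucosinolate genes also fell at the transition. A list of 73 pathway loci and relatives was used, of which 12 besides BCAT4 and AOP3 had a probe set, so most of the pathway was not analysed here. The 12 include AT1G50110 and ATBCAT-5, entered only as aminotransferase relatives of BCAT4. From the vegetative to the transition apex 8 of the 12 were called lower, 2 higher and 2 neither, while 23.1% of all probe sets were lower and 30.6% higher. The median was -0.76 against 0.06 over all probe sets tested. AT2G25450, entered on the side-chain list by its locus and carrying no other name in the annotation used, fell by 5.62 ± 0.13 (limma, adjusted p = 9.6e-21), from 693 ± 33.6 to 6.29 ± 1.75, which is background, so that the vegetative apex was at least 31.5-fold brighter. On the aliphatic core list AT2G31790 fell by 1.79, GSTU20, a glutathione S-transferase of the core pathway, by 1.54, and UGT74B1, which adds the glucose, by 0.50. The transporters GTR2 and GTR1, which import glucosinolates into cells, fell by 1.36 and 1.01. PYK10, a beta-glucosidase that can cleave glucosinolates and is stored in endoplasmic reticulum bodies, fell by 4.29.

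The 2 listed genes that rose at the transition were the transcription factor MYC3, by 0.69, and AT1G50110, on the list of branched-chain aminotransferase relatives, by 0.68. MYC4, like MYC3 a bHLH factor that activates glucosinolate genes, fell by 0.37. ATBCAT-5, a branched-chain aminotransferase of the same family as BCAT4, gave 0.04 ± 0.07, and AOP1, a dioxygenase gene near AOP3, gave -0.01 ± 0.10; neither was called. Neither of the other measured aminotransferase genes was lower in the transition apex. From the transition to the inflorescence apex 8 of 12 were called lower, 1 higher and 3 neither, against 16.5% and 15.7% of all probe sets, with a median of -0.41 against 0.00. GTR1 was the 1 that rose, by 0.37. From the vegetative to the inflorescence apex 9 of 12 were lower and 2 higher, against 26.6% and 34.1% of all probe sets, and AT2G25450 and PYK10, both at background in the inflorescence apex, were at least 30.6-fold and 50.1-fold brighter in the vegetative apex.

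**Figure D2:**
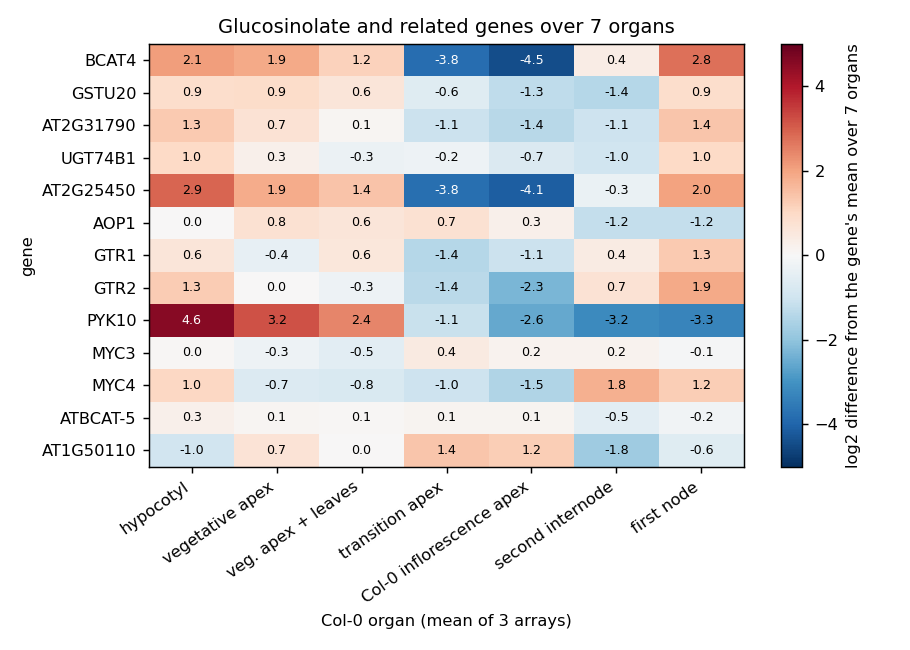
Mean log2 level of BCAT4 and the 12 other measured genes in the 7 Col-0 organs (columns), each as the difference from that gene's own mean over the organs; red is higher and blue lower. BCAT4 and AT2G25450 share the deep low in both flowering apices, while PYK10 is also low in the second internode and first node.

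Adding young leaves to the vegetative apex lowered BCAT4 by 0.73 ± 0.08 (limma, adjusted p = 1.1e-07, 48.2% called), a ratio of 1.67. The other measured genes went mostly the same way, 8 of 12 being lower, 1 higher and 3 not called, against 29.5% lower and 18.8% higher among all probe sets. Their median was -0.29, against -0.09 over all probe sets. GTR1 was again the exception and rose by 1.00, from 171 ± 14.3 to 350.5 ± 30.3. AT2G31790 fell by 0.63 and UGT74B1 by 0.54. The summed signal of the 3 leaf markers was 6146 to 6826 with the leaves and 3127 to 3222 without them, opposite in direction to BCAT4.

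Within the stem BCAT4 was 5.27 times as bright in the first node as in the second internode. On the log2 scale the internode was lower by 2.39 ± 0.08 (limma, adjusted p = 2.0e-17, 57.2% called). Of the 12 other genes 8 were lower in the internode, 2 higher and 2 not called, against 29.8% and 27.4% of all probe sets, and the median was -1.03 against -0.01. AT2G31790 (-2.45), GSTU20 (-2.32), AT2G25450 (-2.31) and UGT74B1 (-1.99) fell by about as much as BCAT4. GTR2 (-1.20) and GTR1 (-0.89) fell by less, and MYC4 rose by 0.56. The first-node arrays are among the 6 with a high dap control; the second-internode arrays are not, and the part of that difference in the result was not tested. The leaf markers summed to 5599 to 5746 in the node and 7492 to 8792 in the internode. IRX15, the 1 measured secondary wall marker of 4, was at 409 ± 22.3 in the node and 933 ± 10.9 in the internode.

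Both stem samples had far more BCAT4 signal than the inflorescence apex above them. The second internode exceeded the Col-0 inflorescence apex by 4.81 ± 0.08 (limma, adjusted p = 1.5e-24, 84.8% called), or by 3.69 to 5.35 over the offsets tried, and was at least 23.2-fold brighter. It exceeded the transition apex by 4.19 ± 0.08 (limma, adjusted p = 1.9e-23, 84.7% called) and was at least 23.3-fold brighter than it. The first node exceeded the Col-0 inflorescence apex by 7.20 ± 0.08 (limma, adjusted p = 7.0e-27, 82.4% called), or by 6.03 to 7.76 over the offsets tried, and was at least 122-fold brighter; these are the groups that share a high dap control. Leaf and secondary wall markers were also higher in the stem samples. The leaf markers summed to 5599 to 5746 in the node and 7492 to 8792 in the internode, against 1607 to 1677 in that apex, and IRX15 was at 409 ± 22.3 and 933 ± 10.9, against 3.18 ± 4.10. Their part in the BCAT4 result was not tested. Of the 12 other genes 7 were higher in the node than in that apex and 5 lower, against 36.4% and 46% of all probe sets, with a median of 1.95 against -0.13. AT2G25450 was at least 34.0 times as bright, and GTR2 was higher by 4.21, whereas AT1G50110 was lower by 1.81 and AOP1 by 1.45. In the internode against the same apex 5 were higher and 6 lower, against 37.9% and 46.9% of all probe sets. Of the lower ones GSTU20 (-0.15) and UGT74B1 (-0.26) depended on the scaling: with equal array medians they gave 0.10 (limma, adjusted p = 0.096) and -0.0084 (limma, adjusted p = 0.89).

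BCAT4 and PYK10 parted in the stem. PYK10 was at 2983 ± 228 in the hypocotyl and 1135 ± 20.1 in the vegetative apex, but at 6.20 ± 2.62 in the second internode and 5.08 ± 1.83 in the first node, both at background. The PYK10 arrays of both stem samples overlapped, so they have no order between them.

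The hypocotyl had 3.34 times the BCAT4 signal of the second internode, higher by 1.73 ± 0.08 (limma, adjusted p = 1.8e-15, 75.9% called). Here 10 of the 12 other genes were higher and 1 lower, against 41.5% and 34.4% of all probe sets, with a median of 1.01 against 0.07. AT2G25450 was higher by 3.23, AT2G31790 by 2.37, GSTU20 by 2.28 and UGT74B1 by 2.00, and MYC4 was lower by 0.75. Against the vegetative apex, 9 genes were higher in the hypocotyl and 2 lower, against 35.4% and 38.3% of all probe sets. That list's median was 0.68, against 0.19 ± 0.08 for BCAT4 itself. The hypocotyl also had the highest log2 ratio of 3′ to 5′ control probe sets, at 0.883, against 0.365 in the vegetative apex. With that ratio as a covariate BCAT4 differed by 0.09 ± 0.25 between them (limma, adjusted p = 0.82). As the ratio itself differs between these 2 groups, that fit cannot separate it from the organ.

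In none of the floral mutants did BCAT4 rise above background. BCAT4 lay below it on all 24 inflorescence arrays, with 4.61 as the lowest value, 10.3 as the median and 14.4 as the highest, and below the offset on 8 of them. The group means ran from 11.97 ± 2.12 in ag-12 to 7.49 ± 3.32 in lfy-12, and every group overlapped its neighbour in that order. BCAT4 was therefore below the filter on low values and was not tested among the genotypes. When the filter was removed, 0 of 7 mutants differed from Col-0 by limma (adjusted p = 0.36 to 0.86), and 0 of 7 had an unadjusted p under 0.05. The differences were -0.30 to 0.08. A difference was not detectable at these signals, which does not show that the genotypes have the same level.

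AOP3 gave a different picture: background signal in every Col-0 organ, and a signal above background in the inflorescence apices of ap3-6 and ap2-6. In ap3-6 the AOP3 signal was 67.5, 59.1 and 56.6 (61.1 ± 5.70), between array medians of 41.2 to 41.9 and 60th percentiles of 68.4 to 68.9. In ap2-6 it was 40.7, 30.4 and 29.3 (33.5 ± 6.25), below array medians of 43.1 to 43.4. These 6 arrays did not overlap between the genotypes or with any other array. On the other 36 arrays AOP3 ran from 0.498 to 15.5 with a median of 4.42, below background on all 36 and below the offset on 30. The Col-0 inflorescence apex gave 4.69, 8.95 and 0.722 (4.79 ± 4.12).

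**Figure D3:**
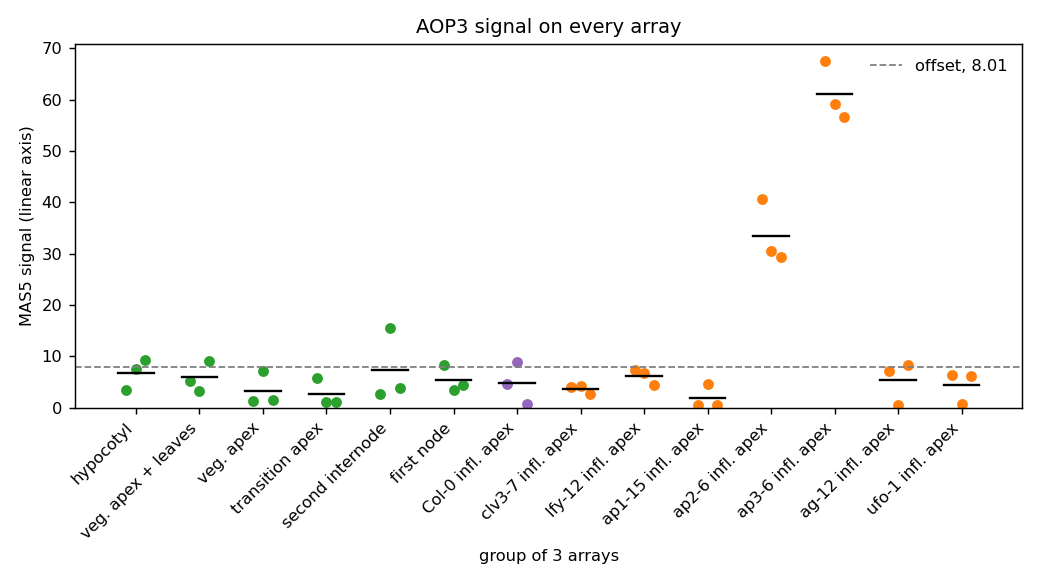
AOP3 MAS5 signal (linear axis) on each of the 42 arrays by group; points are arrays, black bars group means, and the dashed line the offset of 8.01. The 3 ap3-6 arrays (56.6 to 67.5) and the 3 ap2-6 arrays (29.3 to 40.7) stand above all others, of which the highest is a second-internode array at 15.5.

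The mutant apices bear on which transcripts depend on floral regulators. AP3 is needed for petals and stamens, AP2 for sepals and petals, and UFO for switching on AP3. AOP3 was higher in ap3-6 than in Col-0 by 2.48 ± 0.25 (limma, adjusted p = 2.2e-08), in a comparison with 23.8% of 14630 probe sets called. It was higher in ap2-6 by 1.74 ± 0.25 (limma, adjusted p = 9.0e-06, 20.7% called). As Col-0 was at background, AOP3 was at least 2.70 times as bright in ap3-6 and at least 1.48 times in ap2-6. As the mean Col-0 signal lies below the offset, the log2 differences depend on the offset: they were 3.43 and 2.59 with the offset divided by 4, and 1.34 and 0.83 with the offset multiplied by 4. AOP3 passed the filter on low values only through the ap2-6 and ap3-6 arrays. Without any filter the differences from Col-0 were still called (limma, adjusted p = 1.5e-07 for ap3-6 and 2.9e-05 for ap2-6).

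The other 5 mutants were not separated from Col-0 for AOP3. The difference was -0.09 ± 0.25 in clv3-7, 0.19 ± 0.25 in lfy-12, -0.34 ± 0.25 in ap1-15, 0.06 ± 0.25 in ag-12 and -0.03 ± 0.25 in ufo-1, with limma adjusted p from 0.33 to 0.95. The shares of all probe sets called in these comparisons were 19.1%, 27%, 27.5%, 26.9% and 18.8%. In ufo-1 the AOP3 signal was 6.35, 0.680 and 6.16 (4.396 ± 3.22), and all 3 arrays lay below the lowest ap3-6 array, at 56.6. In the filtered fit, which AOP3 entered only through ap2-6 and ap3-6, the difference of ap3-6 from ufo-1 was 2.51 ± 0.25 (limma, adjusted p = 1.9e-08). Over the 8 genotypes, with no filter on low values, AOP3 differed in the moderated F test (F = 33.8, limma adjusted p = 6.6e-09), which 45.9% of the 22746 probe sets passed.

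The Col-0 inflorescence arrays had a high dap control and the mutant arrays did not, and the part of that difference in the AOP3 result was not tested. Against each of the 5 other mutants and Col-0, ap3-6 was higher by 2.29 to 2.83 and ap2-6 by 1.54 to 2.08. All 12 differences were called in the filtered fit, which AOP3 entered only through the ap2-6 and ap3-6 arrays. Of these 12 comparisons, only the 2 with Col-0 are also given without the filter. Among all probe sets the shares called in these comparisons ran from 18.4% for ap3-6 against ufo-1 to 35.1% for ap3-6 against ap1-15; they were 33.6%, 27.4% and 25.6% for ap3-6 against clv3-7, lfy-12 and ag-12, and 24.2%, 25.8%, 19%, 29.6% and 23.5% for ap2-6 against clv3-7, lfy-12, ap1-15, ag-12 and ufo-1. The log2 ratio of 3′ to 5′ control probe sets was 0.728 in Col-0, 0.786 in ap3-6 and 0.516 in ap2-6. With that ratio as a covariate the differences from Col-0 were 2.46 in ap3-6 and 1.83 in ap2-6. Between the 2 mutants AOP3 was higher in ap3-6 by 0.74 ± 0.25 (limma, adjusted p = 0.037, 19.5% called), a signal ratio of 1.82. That call was lost when any 1 of the 3 ap3-6 arrays, or replicate 2 or 3 of ap2-6, was left out (adjusted p = 0.064 to 0.12), and with the ratio as a covariate (adjusted p = 0.23). It was also lost without the filter (limma, adjusted p = 0.056).

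In the Col-0 organs AOP3 was at background. The 21 arrays ran from 0.722 to 15.5 with a median of 4.47, and the highest group mean was 7.36 ± 7.09 in the second internode, set by 1 array at 15.5 beside 2.69 and 3.86. From the second internode down to ap1-15 at 1.89 ± 2.38, each group overlapped the next in the order of AOP3 levels. AOP3 was below the filter in the organs. Without the filter, 0 of 9 organ comparisons were called by limma (adjusted p = 0.26 to 0.97), and 0 of 9 had an unadjusted p under 0.05. BCAT4 and AOP3 were thus not above background together in any of the 14 groups.

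Of the 12 other listed genes, 10 passed the filter among the genotypes, AT2G25450 and PYK10 being below it. In ap3-6 and ap2-6 their called changes were 0.57 or less. In ap3-6 4 of 10 were higher than in Col-0 and 0 lower, against 11.3% and 12.5% of all probe sets: AOP1 by 0.57, GSTU20 by 0.41, AT1G50110 by 0.38 and AT2G31790 by 0.37. In ap2-6 2 of 10 were higher and 0 lower, against 10.2% and 10.5% of all probe sets, namely AT1G50110 by 0.38 and GSTU20 by 0.26. The medians were 0.23 in ap3-6 and 0.15 in ap2-6, against -0.01 and 0.00 over all probe sets. In clv3-7 2 were higher and 0 lower, against 10.4% and 8.69% of all probe sets. In lfy-12 4 were higher and 2 lower, against 13.3% and 13.7%, and in ap1-15 1 and 2, against 14% and 13.5%. In ag-12 3 were higher and 1 lower, against 12.4% and 14.4%, and in ufo-1 3 and 0, against 9.4% and 9.38%.

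The floral marker UFO was at 46.4 ± 9.30 in ap3-6, 3.96 ± 3.91 in ap2-6 and 27.7 ± 1.41 in Col-0. UFO thus lay above Col-0 in 1 of the AOP3-high genotypes and below it in the other. In ap2-6 UFO was below background, at 1.65 to 8.48. The 3 leaf markers summed to 1674 to 1717 in ap3-6, 1542 to 1588 in ap2-6 and 1607 to 1677 in Col-0. The part of these markers in the AOP3 result was not tested.

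The AOP genes lie close together on chromosome 4. In the RefSeq order AOP2 is the next gene after AOP3 and is annotated as a transcribed pseudogene, and AOP1 is 3 genes away. AOP2 was not analysed here. AOP1 had its own pattern: it was at 83.0 ± 10.1 in the vegetative apex, 82.2 ± 2.81 in the transition apex, 15.6 ± 2.51 in the first node and 56.1 ± 2.05 in the Col-0 inflorescence apex. It rose by 0.57 ± 0.10 in both ap3-6 (limma, adjusted p = 0.00012) and ag-12 (limma, adjusted p = 0.00011), whereas AOP3 gave 0.06 in ag-12. In ap2-6 AOP1 gave 0.25 ± 0.10 (limma, adjusted p = 0.081).

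The 10 nearest tested genes on each side of AOP3 were then listed, a window chosen after the values had been seen. In ap2-6 2 of 20 were called (10%, against 20.7% over all probe sets), AT4G02860 by 0.70 and hemf2 by 0.48. In ap3-6 7 of 20 were called (35%, against 23.8%), 3 higher and 4 lower, from -0.53 for AT4G02850 to 0.57 for AOP1. None of these neighbours changed by as much as 2-fold in either mutant. Around BCAT4 on chromosome 3, 9 of 20 neighbours were called between transition and vegetative apex (45%, against 53.6%), again with 0 past 2-fold.

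**Figure D4:**
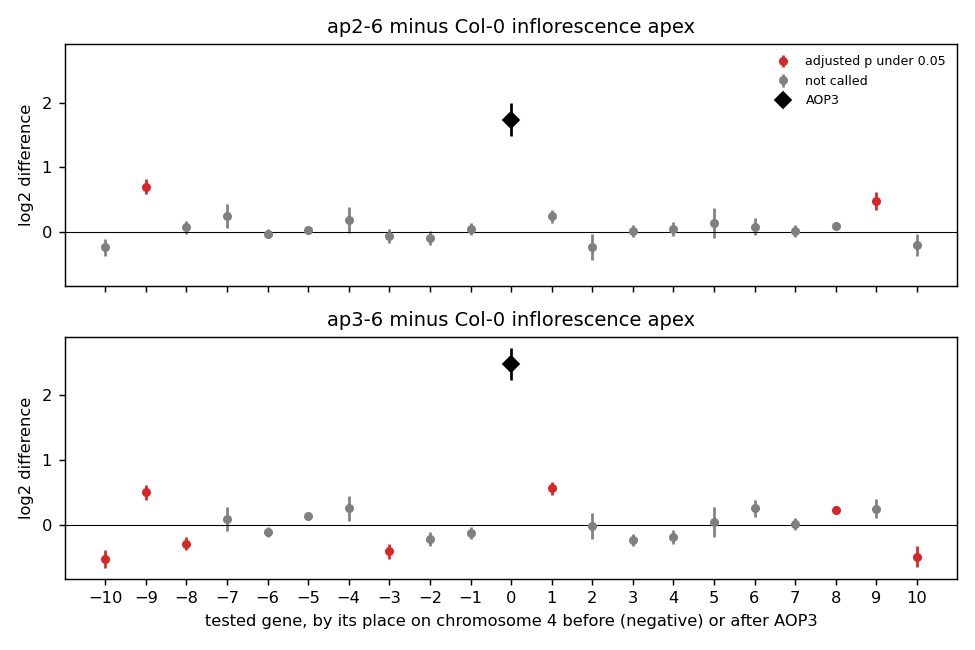
Log2 difference from Col-0, with its SE, of AOP3 (black diamond) and the 10 nearest tested genes on each side along chromosome 4, in ap2-6 (upper panel) and ap3-6 (lower panel); red points are called and grey ones are not. AOP3 stands at 1.74 and 2.48, and the neighbours lie between -0.53 and 0.70.

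Genes with a pattern like BCAT4 were ranked by Pearson's correlation of the 14 group means among 8966 probe sets of 1 gene each. The genes were measured on the same arrays, so the correlations are a description. AT2G25450 came first (r = 0.990), followed by AT5G61660 (0.979), AT3G19030 (0.976), AT5G58390 (0.974) and AT2G26690 (0.973). These 5 carry only locus names in the annotation used. AT2G25450 differed from BCAT4 in its peak: it was highest in the hypocotyl, at 1456 ± 126, and at 769.6 ± 60.5 in the first node. AT5G61660 and AT2G26690 were, like BCAT4, highest in the first node, and AT5G58390 in the vegetative apex. Among the named pathway genes GTR2 came closest to BCAT4, at rank 17 (r = 0.955), and GTR1 was at rank 141 (0.901). AT1G50110 (-0.82), MYC3 (-0.80) and AOP1 (-0.47) ran the other way.

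The 5 genes most like AOP3 were AT5G15360 (r = 0.948), AT4G19240 (0.941), AT4G26280 (0.874), AT5G15950 (0.819) and AT1G50290 (0.819), also known here by locus only. All 5 had their highest mean in ap3-6, which largely follows from picking them for likeness to AOP3 over these same group means. AT5G15360 was at 248 ± 15.9 in ap3-6 and 120.1 ± 29.7 in ap2-6, and at 18.7 ± 3.85 or less in the other 12 groups. AT4G19240 was at 109 ± 10.7 in ap3-6 and 71.6 ± 6.21 in ap2-6, and at 8.68 ± 1.5 or less elsewhere. The next genes were less alike: AT4G26280 had 157.6 ± 16.7 in ap3-6 but 40.9 ± 7.80 in ap2-6, AT1G50290 had a second high of 71.2 ± 1.56 in the second internode, and AT5G15950 reached 145 ± 7.32 in lfy-12. AOP1 was at rank 1221 (r = 0.21). Of the 10 genes most like AOP3, 5 lie on chromosome 4, which holds 14.7% of the ranked probe sets; this count was made after the values were seen and was not tested.

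**Figure D5:**
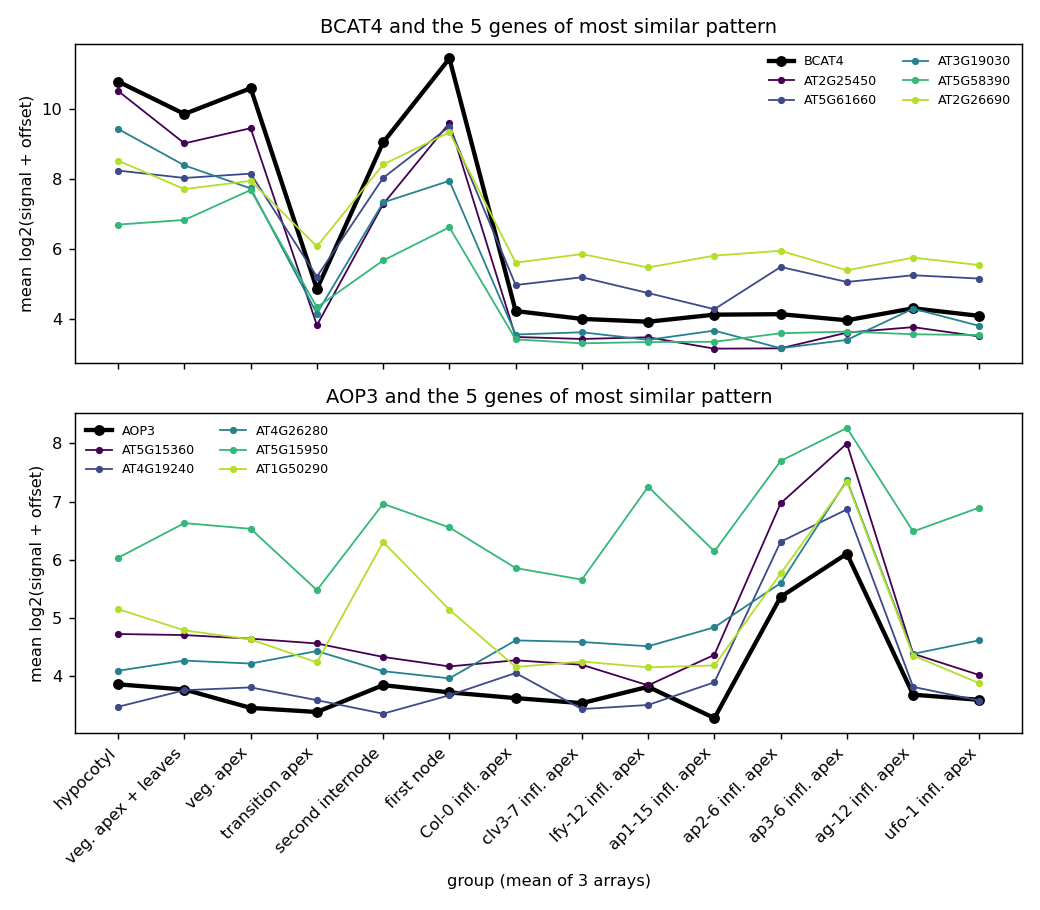
Mean log2(signal + 8.01) over the 14 groups for BCAT4 (upper panel, black) and AOP3 (lower panel, black) with the 5 genes of most similar pattern for each. The genes like BCAT4 are all low in the transition apex and in the inflorescence apices, and the genes like AOP3 all peak in ap3-6. The genes were picked for this likeness over the same groups.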

How the data were processed

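The deposited table holds the authors' MAS5 signal intensity per probe set on a linear scale, per the submitters' processing notes. Version and settings: not given in the sources used here. Array number, not depth, limits the precision. No further normalization was applied. The log2(signal + 8.01) was computed here from the deposited signals; as offset served the arrays' median 25th percentile. A probe set entered a fit if 3 or more of its arrays exceeded their own 40th percentile; the 64 AFFX controls were not tested. The 21 arrays of Col-0 organs (16039 probe sets, 14 residual df) and the 24 of inflorescence apices (14630 probe sets, 16 residual df) were fitted separately in R 4.3.3 by lmFit and trended eBayes of limma 3.58.1. Tests were two-sided, with Benjamini-Hochberg adjustment over all probe sets of each contrast. The fit was tested on simulated data with known changes.

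Probe sets were named through the platform annotation and the RefSeq table of TAIR10.1: 13513 name 1 gene, 503 several and 8794 none. LFY, AP1, AP2, AP3 and AG were not analysed here, and no coordinates are given because no source used here names the array's genome build. Named genes were BCAT4, AOP3, all measured genes of the pathway lists, and the 5 most similar in pattern to each member; neighbours on the chromosome, and folds given as lower bounds, were added after their values were seen. The members and lists were chosen with earlier results of these data known. Replicate letters did not pair samples. Alternatives changed the scaling, offset, filter, variance model, samples in the fit, reference, a covariate and single arrays. Plots used Python 3.11.15 and matplotlib 3.10.9.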

Additional observations from a re-analysis of the deposited data

How the results depend on the processing

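Of the 12 BCAT4 differences between Col-0 organs, 11 kept their direction and their call under all alternatives that could be fitted and with any 1 array left out. The exception, hypocotyl minus vegetative apex, stayed positive but lost its call with the offset divided by 4 (0.19), scaling to equal medians (0.092), no filter (0.19), eBayes without trend (0.19), the 3′/5′ covariate (0.086) and all 42 arrays in 1 fit (0.19), and ran from 0.14 to 0.24 with single arrays left out. AOP3 in ap2-6 and ap3-6 against Col-0 kept its direction and call under all 12 alternatives fitted. It ran from 1.49 to 1.97 and from 2.23 to 2.71 with single arrays left out. Apart from the fit without a filter, these fits kept a filter that AOP3 passed only through the ap2-6 and ap3-6 arrays. AOP3 in ap3-6 against ap2-6 was not called with the offset divided by 4 (0.84), no filter (0.74) or the 3′/5′ covariate (0.62), and ran from 0.67 to 0.86 with single arrays left out. For AOP3 in mutants at background, the mean of the other 6 mutants, which include ap2-6 and ap3-6, was also used as reference. The difference was then -0.77 in clv3-7, -1.07 in ap1-15, -0.70 in ufo-1 and -0.60 in ag-12, and these became called. In lfy-12 it was -0.44 and not called (limma, adjusted p = 0.097). The signs in lfy-12 and ag-12 were opposite to those against Col-0. Here the changed reference holds the 2 high groups. AOP3 in ufo-1 turned to 0.11 under quantile normalization and 0.00067 under median scaling, neither called. With single arrays left out it ran from -0.34 to 0.14 in clv3-7, -0.055 to 0.42 in lfy-12, -0.19 to 0.35 in ag-12 and -0.28 to 0.21 in ufo-1, with no call. The causes of these changes were not tested unless named.

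The replicate letters were also fitted as a replicate block, although same-letter samples did not deviate together (mean correlation -0.005 over 63 pairs in the organs, -0.006 over 84 pairs in the genotypes). The block changed no call: BCAT4 in the hypocotyl minus the vegetative apex stayed at 0.19 (limma, adjusted p = 0.0499) and AOP3 in ap3-6 minus Col-0 at 2.48 (limma, adjusted p = 5.7e-08). Of 406 counts of pathway genes under alternatives 386 were within 1.5 times the reported count. Of 203 counts over all probe sets 199 were: the exceptions, by the 3′/5′ covariate, were 1555 against 5155 for inflorescence minus transition apex, 4455 against 9727 for inflorescence minus vegetative apex and 5634 against 11834 for hypocotyl minus vegetative apex, and, with the mean of the other 6 mutants as reference, 4779 against 2793 for clv3-7. Median scaling shifted the median of all probe sets by -0.25 in hypocotyl minus internode, 0.22 in internode minus inflorescence apex and 0.15 in first node minus inflorescence apex. AOP3 could not be fitted with the 60th percentile filter, nor in fits of 2 groups for the 5 mutants at background, nor BCAT4 in inflorescence minus transition apex, because they were below the filter. The list genes had at most 1 probe set each, so using every probe set gave the same counts. Signals below background limit what could be seen of AOP3 in the organs and of BCAT4 in the inflorescence apices.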
